A study of Mus musculus with 10 samples.

Results

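N6-methyladenosine (m6A) regions whose enrichment was lower in Mettl3 knockout (KO) than in wild type (WT) mouse embryonic stem cells were taken from window scores of antibody precipitations. There were 600 such regions in 566 genes, out of 9603 regions in 5956 genes with enough input signal (6.25%). The cells were of the established mouse embryonic stem cell line J-1, kept without feeders, and a part of the series' protocol describes differentiation by leaving out LIF, although no library here is labelled as differentiated. Fragmented total RNA was precipitated with an m6A antibody (IP) and set beside unprecipitated RNA (input), giving 10 libraries in 5 pairs. The groups were 1 first pair without a stated genotype, 2 pairs labelled mettl3 WT and 2 pairs labelled mettl3 KO. The labels do not say how many KO clones were used, which part of the gene was altered or whether replicates were separate cultures.

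A methyltransferase complex built on METTL3 and METTL14, held in place by WTAP and other subunits, writes most m6A on messenger RNA as it is made. FTO and ALKBH5 can remove the mark, and YTH domain proteins bind it, which for many transcripts leads to faster decay. The mark sits mostly near stop codons, at the start of long last exons and in long internal exons, and in embryonic stem cells it is found on transcripts of pluripotency factors.

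The score of a window is the authors' log2 value for how far IP signal stands above the median of its gene, relative to the same quantity in the input, with 1 added to each coverage. A region was a run of at least 2 consecutive windows at a score of 2 or more in the first pair, in a gene whose RPKM averaged at least 1 in the WT input columns. Of 10181 such regions, 578 had a mean input coverage below 1 over the WT and KO libraries and were left out. The regions described had a mean score of at least 2 in WT, under 2 in KO, and a WT minus KO difference of at least 1. The members were thus chosen by their scores in the WT and KO libraries, and their values are given as a description without a test. The files name windows by gene and exon and give no coordinates, so no sequence is shown.

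Mettl3 itself was lower in the KO inputs but present in both. Input coverage averaged over the gene was 12.9 in the first input, 4.79 and 4.67 in WT, and 3.14 and 3.38 in KO. On the scale of log2(coverage + 1) Mettl3 fell by 0.43 (SE 0.072, n = 2 per group, limma adjusted p = 0.00259). In RNA of whole cultures, fewer cells with a transcript and less of it per cell cannot be told apart. Counted from the 5′ end, exons 4 and 9 of its 11, chosen after their values were seen, were the only ones below 1 in an input. Exon 4 was covered at 3.34 and 4.88 in WT, 3.33 in KO replicate 1 and 0.388 in KO replicate 2, and exon 9 at 3.91 and 2.58 in WT, 2.51 and 0.733 in KO. The other exons lay between 1.07 and 5.81 in the KO inputs. Among the other writer genes, 1 of 10 tested passed: Zc3h13, a subunit of the writer complex, fell by 0.36 (limma adjusted p = 0.0152). IP depth relative to the first IP, read from the smallest step in coverage, was 0.159 and 0.0712 in WT against 0.0644 and 0.0606 in KO. Input depth relative to the first input, read in the same way, was 0.438 and 0.457 in WT against 0.516 and 0.284 in KO. Both low values of Mettl3 exons were thus in the shallowest input, KO replicate 2, in exons of only 4 and 2 windows. The part of depth in these values was not tested. All 10 embryonic stem cell markers were above a mean input coverage of 1, with summed coverage of 2793 and 2877 in WT against 2269 and 2123 in KO. No endoderm marker (of 5) and no trophectoderm marker (of 4) reached 1, while 4 of 8 fibroblast, 2 of 4 neural and 1 of 5 mesoderm markers did. The summed fibroblast coverage was 57.8 to 61.0 over the 4 inputs and 179 in the first input, whose pair defined the regions. The part of these markers in the results was not tested.

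Over the 600 regions the median score was 2.48 in the first pair, 2.77 and 3.21 in WT against 0.87 and 1.61 in KO. Over all 9603 regions tested it was 2.85 in the first pair, 3.42 and 3.80 in WT against 3.67 and 3.42 in KO. The members thus stood below the typical region in WT as well, and KO replicate 1 was the lower of the KO libraries. The median WT minus KO difference was 1.67 for the members, between 1.01 and 4.49, and 0.07 for all regions tested. A difference of at least 2 was reached by 178 members and of at least 3 by 27.

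**Figure D1:**
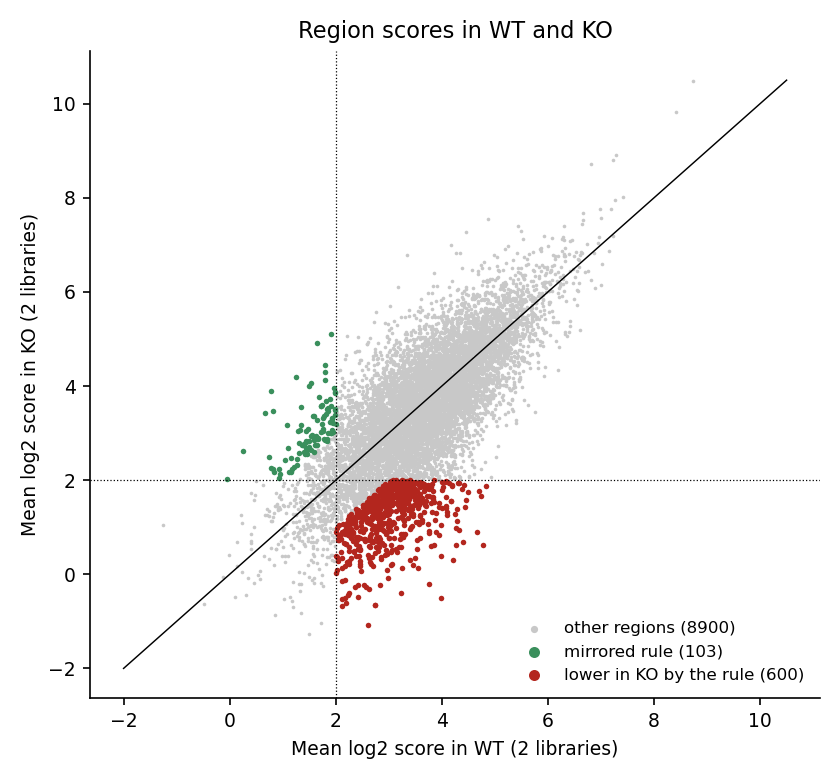
Mean log2 score of each tested region in WT (horizontal) and KO (vertical), 2 libraries each, with dotted lines at 2 and a line of equality. The 600 regions chosen (red) lie below 2 in KO by the rule, the 103 regions of the mirrored rule (green) lie below 2 in WT, and the remaining regions (grey) lie along the line of equality.

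The same rule with WT and KO exchanged found 103 regions in 98 genes (1.07% of the regions tested). Between single libraries of one genotype the rule was met by 134 regions from WT replicate 1 to WT replicate 2 and by 197 the other way. Between the KO libraries it was met by 526 regions higher in KO replicate 1 and by 719 higher in KO replicate 2. From a WT library to a KO library the count lay between 594 and 1008, and from KO to WT between 183 and 235. Counted in both directions, the 2 KO libraries differed from each other in more regions than any WT library did from any KO library. The nearest was WT replicate 2 with KO replicate 1 (1008 and 234), and the furthest WT replicate 1 with KO replicate 2 (594 and 183). Without KO replicate 2 the rule was met by 981 regions, of which 488 were members. The mirrored count was 187 without WT replicate 1, 162 without WT replicate 2 and 177 without KO replicate 2.

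**Figure D2:**
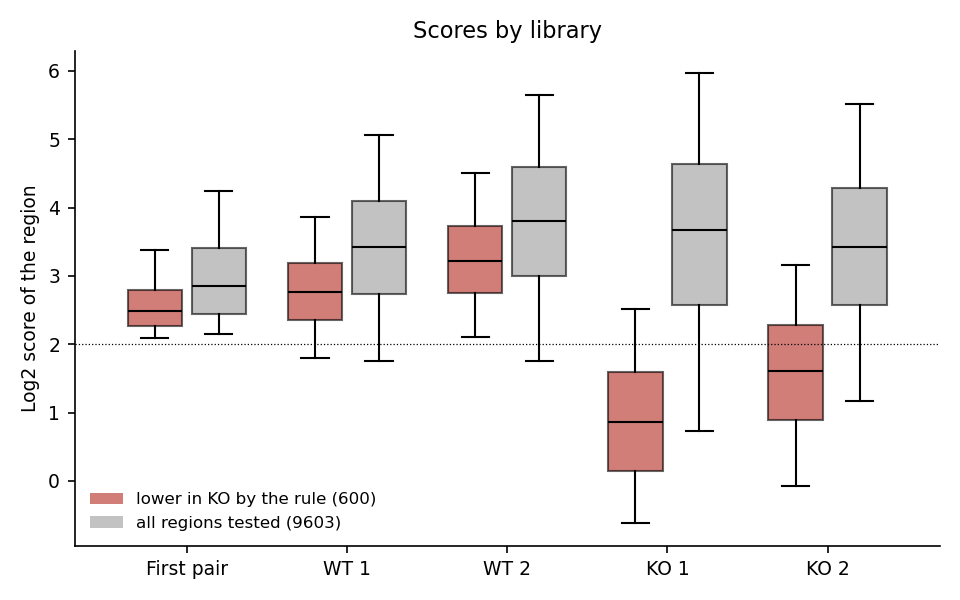
Log2 region scores in each IP and input pair for the 600 chosen regions (red) and all 9603 regions tested (grey). Boxes span the quartiles with the median as a line, and whiskers span the 5th to 95th percentile. The red boxes have medians of 0.87 and 1.61 in KO, against 2.77 and 3.21 in WT.

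The KO libraries did not lower the members equally. Of the 600, 304 (50.7%) were under 2 in both KO libraries, 212 (35.3%) only in KO replicate 1 and 84 (14.0%) only in KO replicate 2. Over all regions tested these shares were 6.50, 9.36 and 7.31%, from scores that the rule used. A score of at least 2 in both WT libraries together with under 2 in both KO libraries was seen in 240 members, and under 1 in both KO libraries in 49 of these. Both KO scores lay below both WT scores in 494 members (82.3%), against 22.3% of all regions tested, a contrast the rule used and from which nothing is read. In 141 members (23.5%) the highest window of the region still reached 2 in both KO libraries, against 87.5% of all regions tested. The region as a whole was chosen as low in KO, but for these members 1 window or more reached 2 in each KO library. It need not be the same window in both.

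No region passed a test of the score itself. With limma on the 9603 region scores, 0 passed at an adjusted p of 0.05 (0.00%), with a smallest adjusted p of 0.489, and 0 passed in the ratio of IP to input. At an unadjusted p under 0.05, 315 regions were higher and 495 lower in KO, from the same scores that chose the members. For the ratio of IP to input, which does not divide by the gene median, 133 were higher and 1468 lower. In the score with 1 KO library left out, regions passed in both directions, some higher and some lower in KO. In such a fit the group left with 1 library has no spread of its own and is assumed to vary like the other.

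Of the parts of the score, the IP signal in the region differed most between WT and KO in the members. The rule chose them by this score, so the size of that part is a description. Median IP coverage of the member regions was 22.2 and 22.9 in WT against 3.03 and 8.10 in KO, against 56.9 and 59.0 in WT against 43.1 and 44.6 in KO for all regions tested. Median input coverage of the member regions was 3.66 and 3.62 in WT against 3.57 and 3.40 in KO. Taken as contributions to the score, the IP signal in the region gave a median WT minus KO difference of 1.99, and the gene's median IP signal gave −0.29. Input in the region gave −0.03 and the gene's median input gave 0.10. Over all regions tested these contributions were 0.54, −0.46, −0.06 and 0.06.

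Many members had no IP signal left in a KO library. IP coverage was listed at 0 in KO replicate 1 for 124 members (20.7%) and in KO replicate 2 for 24, and in 12 members it was 0 in both. No member was at 0 in a WT library. Over all regions tested, 197 (2.05%) were at 0 in KO replicate 1 and 41 in KO replicate 2. The gene median of IP coverage, the divisor of the score, was 0 for 39 and 254 members in WT and for 391 and 284 in KO. The deepest of the 4 IP libraries, WT replicate 1, had the fewest zeros, but KO replicate 1 had more than the slightly shallower KO replicate 2. The part of depth in the choice of members was not tested.

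A ratio of IP to input that does not divide by the gene median gave the members the same order of libraries. Every library was centred on windows with a first-pair score under 1, in 5971 genes where these windows had a mean input coverage of at least 5. The median log2 ratio of the members was 3.16 and 3.40 in WT against 0.78 and 1.92 in KO. Over all regions tested it was 3.99 and 4.17 in WT against 3.59 and 3.70 in KO. The ratio was at least 1 lower in KO in 547 of the 600 members, against 22.3% of all regions tested. It is built from the same IP and input signals as the score, so it is not an independent measure.

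**Figure D3:**
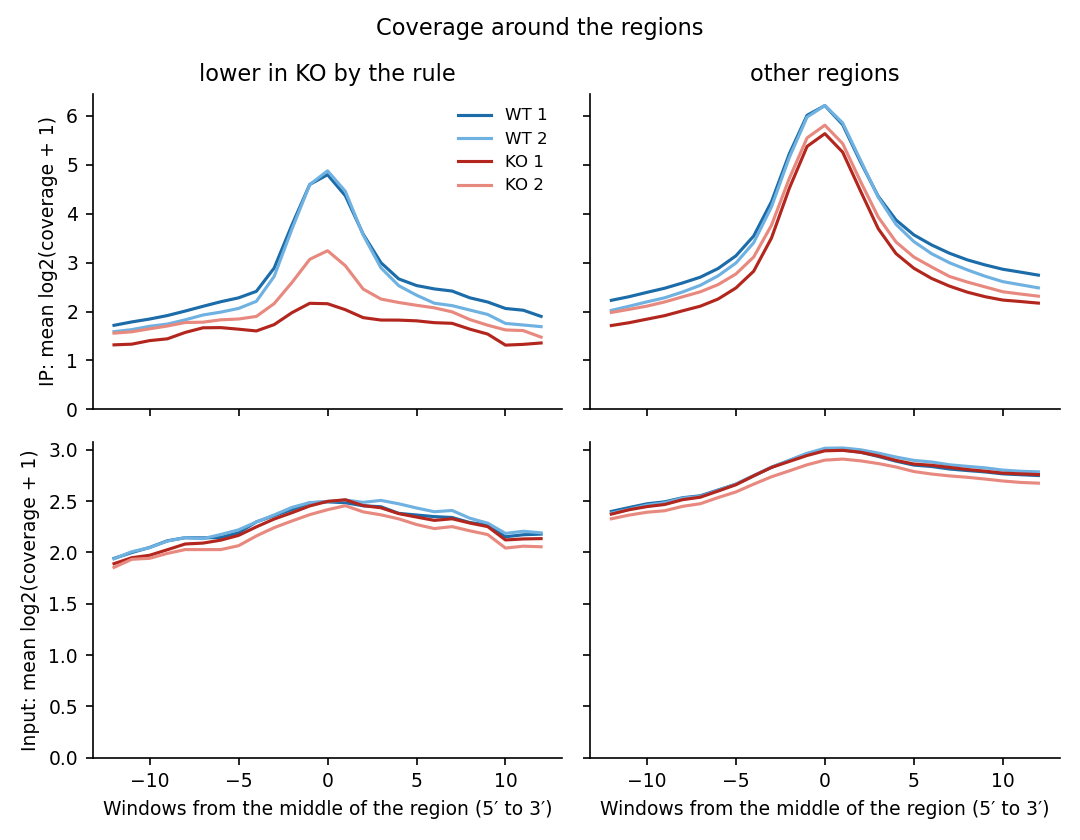
Mean log2(coverage + 1) of IP (top) and input (bottom) by window, from 12 windows upstream to 12 downstream of the middle of the region, for chosen regions (left) and other tested regions (right) whose strand is known. At the middle of the chosen regions the IP means were 4.80 and 4.88 in WT against 2.16 and 3.24 in KO, while the input means were 2.49 and 2.50 in WT against 2.50 and 2.42 in KO.

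Regions found in one replicate pair were read in the other, which the choice had not used. Comparing WT replicate 1 with KO replicate 1 alone, 879 regions met the rule, and in replicate 2 648 of them (73.7%) were lower in KO, against 64.8% of all regions. The rule itself was met again by 188 (21.4%), against 7.76% of all regions. Starting from replicate 2, 745 regions met the rule, and 450 (60.4%) were lower in KO in replicate 1, against 42.4% of all regions. Here 188 (25.2%) met the rule again, against 9.15%. The median difference in the unused pair was 0.73 and 0.37, below the 1.90 and 1.87 of the pair used for choosing. For the mirrored rule, 30 of 235 (12.8%) and 30 of 206 (14.6%) regions met it again, against 2.15 and 2.45% of all regions, while 104 (44.3%) and 115 (55.8%) were higher in KO in the unused pair, against 35.2 and 57.6% of all regions. The replicate numbers are only names, so these pairs join libraries that share nothing else in the labels.

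Members were short, modest regions with little input. The share of tested regions that were members fell from 11.8% in the lowest of 4 equal bins of first-pair scores to 1.25% in the highest. By length it was 12.2% of regions of 2 windows, 9.06% of 3, 5.58% of 4 to 5 and 1.72% of 6 or more. By input coverage it was 10.4% in the lowest of 4 equal bins and 4.37% in the highest. The mirrored regions followed the same order by first-pair score and by length, from 2.71 to 0.0833% and from 3.11 to 0.0593%. Median input coverage was 3.47 in the members and 5.82 in all regions tested, and 228 members had at least 5. The part of score level, length and coverage in the choice of members was not tested.

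**Figure D4:**
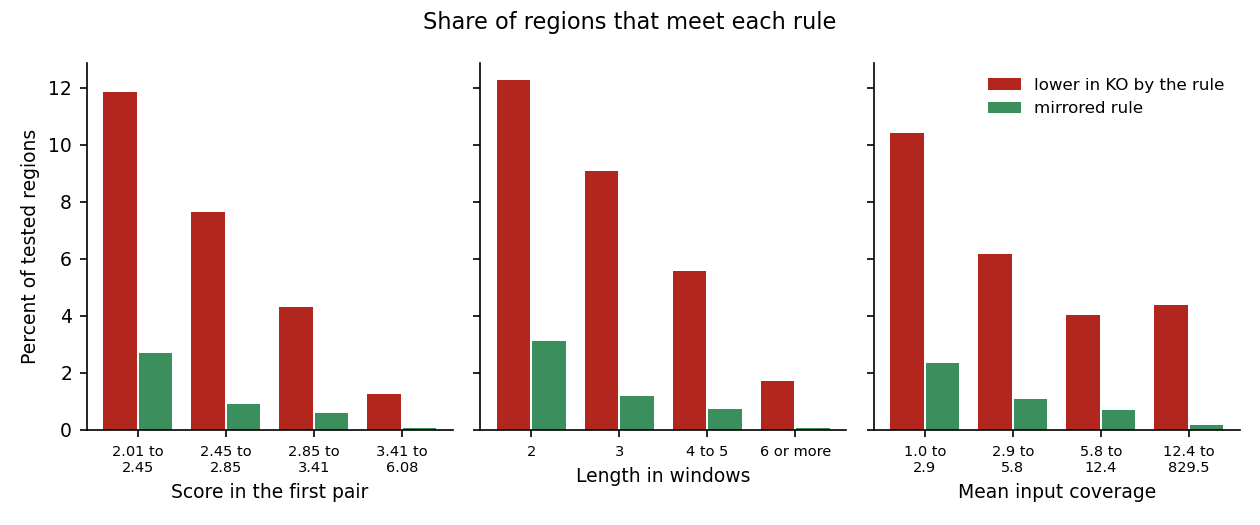
Percent of tested regions that met the rule (red) or its mirror (green), by the score in the first pair (4 equal bins), by length in windows and by mean input coverage (4 equal bins) over the WT and KO libraries. Red bars fall from 11.8 to 1.25% with the score and from 12.2 to 1.72% with length, and stand at 10.4, 6.16, 4.04 and 4.37% with input.

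By place in the transcript, members lay mostly in last exons. Exons could be ordered from the 5′ end in genes whose strand is known, which left 490 members and 7631 regions tested with a known place. Of these, 373 members (76.1%) lay in the last exon, against 67.0% of all regions, and 89 (18.2%) in an internal exon, against 1909 of the 7631. The first exon held 22 members and genes of a single exon held 6. Put the other way, 7.30% of last-exon regions, 4.66% of internal and 5.77% of first-exon regions were members. Within the last exon, the middle of member regions lay a median of 7 windows from its start (all regions, 8). It lay a median of 20 windows from the transcript's end (24). Of the internal exons that held members, 76 of 89 spanned at least 8 windows, against 1743 of 1909 for all regions. Length, coverage and place are not independent of each other, and their separate parts were not tested.

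Where the genes of the members had further m6A regions, most of these stayed enriched in KO. Of the 566 genes, 242 had no other tested region, 324 had more and 13 of those had every region among the members. The remaining 572 regions of these genes had a median score of 3.57 in WT against 3.44 in KO, with a median difference of 0.10. A score of at least 2 in all 4 libraries was held by 430 of them (75.2%), against 78.7% of 8431 regions in other genes. In 264 of the 324 genes (81.5%) at least 1 region was held in this way. In most of these 324 genes, then, a member and a held region lay in the same gene, and whether they shared an RNA molecule was not measured.

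Among the members with an input coverage of at least 5, the largest difference was in the last exon of Gca, which codes for the calcium-binding protein grancalcin. Its scores were 3.77 and 4.20 in WT against −0.71 and −0.29 in KO. IP coverage was 26.7 and 18.6 in WT against 0 and 0.701 in KO, over an input of 6.98 to 8.60 in all 4 libraries. The libraries of the genotypes did not overlap, and the IP signal in KO was nearly gone while the input stayed level. Taok1, a kinase of the STE20 family that feeds into MAP kinase cascades, had scores of 4.06 and 5.49 in WT against 0.87 and 0.39 in KO, with IP coverage listed at 0 in both KO libraries. Another region of Taok1, in the same last exon, kept 4.98 and 6.09 in WT against 5.25 and 4.78 in KO. Within 1 exon of Taok1, then, one region was low in KO and the other was not.

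Rngtt, the enzyme that caps messenger RNA, had a region at 2.68 and 4.42 in WT against −0.21 and 0.47 in KO. Sec24a, a coat protein of vesicles that leave the endoplasmic reticulum, had one at 3.16 and 3.34 in WT against 0.45 and −0.20 in KO. Acsl3, which activates long-chain fatty acids, had one at 3.84 and 4.35 in WT against 1.02 and 1.61 in KO, at an input of 26.5. In these 3 both KO libraries were low. The region of Dmxl1 was alike, at 2.24 and 3.87 in WT against 0.27 and 0.16 in KO, as was that of Hilpda, a protein of lipid droplets, at 2.97 and 4.22 in WT against 0.04 and 1.52 in KO. IP coverage of Hilpda was 48.0 and 53.4 in WT against 10.7 and 43.0 in KO, so that in KO replicate 2 its IP signal was close to WT.

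In other members of this group KO replicate 1 was far lower than KO replicate 2. Herc1, a giant ubiquitin ligase, had scores of 3.51 and 4.19 in WT, −1.92 in KO replicate 1 and 3.15 in KO replicate 2, where IP coverage was 0 and 36.0, against 54.0 and 56.1 in WT. Serac1, which acts in phospholipid remodelling, had 3.78 and 5.12 in WT but −0.12 and 3.28 in KO. Ppp3cb, a catalytic subunit of calcineurin, had 3.26 and 4.53 in WT against −0.42 and 2.21 in KO. In each of these KO replicate 2 stayed above 2 but below both WT libraries. Commd6 (0.52 and 2.05 in KO) and Mapt, the microtubule protein tau (1.22 and 2.29 in KO), were also above 2 in KO replicate 2. Their WT scores were 3.88 to 5.09. IP coverage of Commd6 was 129 and 153 in WT against 8.66 and 27.0 in KO.

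The members with the highest input coverage gave smaller differences on deeper signal. The last-exon region of Nanog, the homeodomain factor of naive pluripotency, had an input coverage of 147 and scores of 3.03 and 3.25 in WT against 1.55 and 2.03 in KO. IP coverage there was 798 and 822 in WT against 253 and 279 in KO. Rrm2, the small subunit of ribonucleotide reductase, stood at 2.72 and 2.91 in WT against 1.02 and 1.22 in KO, with IP coverage of 294 and 318 in WT against 90.4 and 82.7 in KO. For Nanog and Rrm2 the replicates of each genotype lay close together and the genotypes did not overlap. Cdc5l, a spliceosome component, had 3.11 and 2.91 in WT against 1.60 and 1.68 in KO. Dnaja2, a co-chaperone of HSP70, had 3.34 and 2.75 in WT against 1.40 and 1.80 in KO. Fscn1, which bundles actin, had 2.93 and 1.96 in WT against 1.27 and 1.27 in KO.

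The other well-covered members were uneven between the KO libraries. Fxr1, an RNA-binding protein of the FMR family, had 3.43 and 3.89 in WT against 0.63 and 3.20 in KO. Rab1, a GTPase of early secretion, had 2.55 and 3.82 in WT against 1.12 and 2.40 in KO. G3bp2, a protein of stress granules, had 2.61 and 2.996 in WT against 2.16 and 1.42 in KO, and its IP coverage of 322 in KO replicate 1 was above both WT values (267 and 257). That last region met the rule although 1 KO library had more IP signal than WT. Wapal, which releases cohesin, had 2.71 and 2.56 in WT against 2.37 and 0.86 in KO. The noncoding transcript guttman:linc1587.3 had 1.75 and 2.94 in WT against 0.82 and 1.54 in KO, so its WT scores lay further apart than its KO scores. Its IP coverage was 230 and 269 in WT against 235 and 207 in KO, with KO replicate 1 above WT replicate 1.

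**Figure D5:**
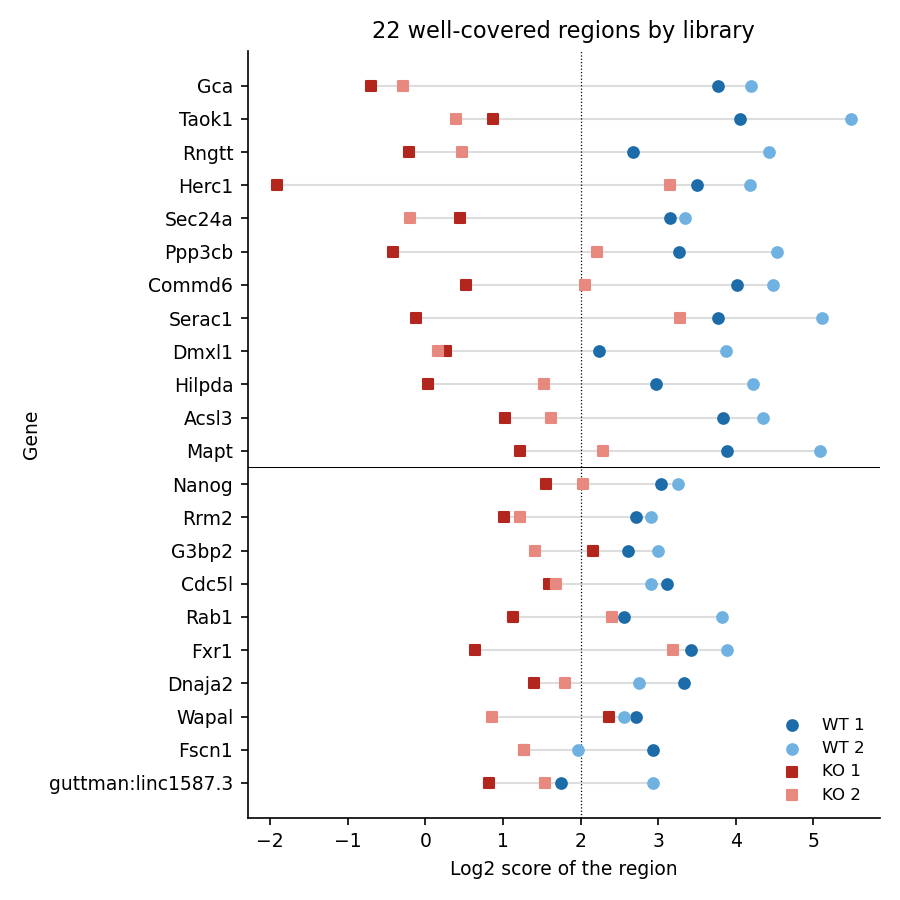
Log2 score in each WT (circles) and KO (squares) library for 22 chosen regions with an input coverage of at least 5: above the line the 12 with the largest WT minus KO difference, below it the 10 with the highest input. The dotted line marks a score of 2. KO squares of Herc1, Serac1 and Fxr1 lie far apart, at −1.92 and 3.15, −0.12 and 3.28, and 0.63 and 3.20, while those of Gca, Rrm2 and Cdc5l lie together.

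A total of 8 members had both WT scores at 3 or more and both KO scores under 1. They lay in Gca, Taok1, Sec24a, Dgke, Letmd1, Slc12a9, Gm5039 and Cerk. Dgke, a diacylglycerol kinase, had scores of 3.08 and 4.45 in WT against −0.47 and 0.07 in KO. Letmd1 had 4.20 and 4.22 in WT against −0.19 and 0.81 in KO, at an input coverage of only 1.03. Of these 8, 7 lay in a last exon and Gm5039 has a single exon. Cerk, which phosphorylates ceramide, had a first member at 3.12 and 3.79 in WT against 0.57 and −0.15 in KO, and a second in the same exon at 2.35 and 3.73 in WT against 1.102 and 0.73 in KO.

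There were 30 genes with more than 1 member, 26 with 2 and 4 with 3. The 4 genes with 3 were Rc3h1, Khnyn, Vps13d and Aff1. Rc3h1 codes for Roquin-1, a protein that promotes decay of messenger RNA. Its last-exon members had 2.38 and 3.72, and 2.49 and 2.88, in WT, against 0.28 and 0.10, and 0.19 and 0.54, in KO. Its member in exon 2 had 3.07 and 2.65 in WT against −0.13 and 1.47 in KO. Aff1, a scaffold of transcription elongation complexes, had 3 members with differences of 1.74, 1.47 and 1.44, and 4 other tested regions. The region of Aff1 in exon 4 kept 4.65 and 4.70 in WT against 5.29 and 5.51 in KO. Of the other three, that in exon 12 had 4.10 and 4.64 in WT against 2.64 and 3.32 in KO. Those in exon 21 had 5.06 and 4.81 in WT against 4.20 and 3.29 in KO, and 2.56 and 2.38 in WT against 3.82 and 2.49 in KO. Members of 1 gene share their gene median and are not independent of each other.

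The bounds of the rule cut through a continuous range. Just inside the KO bound, among regions with an input of at least 5, were those of Ercc3, Lsg1 and Klhl8, with KO means of 1.996, 1.995 and 1.993. Just outside were Skp2, Wbscr16 and Lrp11, at 2.01, 2.01 and 2.02. The Skp2 region, in the F-box gene of that name, had a difference of 1.91, above that of most members. By the difference, Fbxo42, G3bp2 and Mid1ip1 were just inside at 1.01, 1.01 and 1.02, and Adar, Rapgef1 and Fam64a just outside at 0.999, 0.995 and 0.989.

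Among the pluripotency genes, 3 of 53 regions of the naive list were members (5.66%), against 6.25% of all regions tested. Besides Nanog these were a first-exon region of Tet1, which oxidises methylated DNA, and a region of Nr5a2, an orphan nuclear receptor. The Tet1 region had 3.15 and 2.54 in WT against 1.66 and 1.67 in KO. The Nr5a2 region had 2.69 and 3.57 in WT against 0.51 and 2.88 in KO, so it rested on KO replicate 1. The other region of Nanog, in the same exon, had 3.66 and 4.14 in WT against 2.95 and 3.05 in KO. Tested regions of Sox2, Klf4, Zfp42 and Esrrb were not members: that of Klf4 had 3.62 and 3.58 in WT against 4.24 and 4.16 in KO. The primed and formative list had 13 regions and no member, and 1 of 6 regions of the neural list was a member, in Tubb3, at 2.66 and 2.82 in WT against 1.58 and 1.36 in KO.

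Of the m6A machinery, none of 3 eraser or 16 reader regions was a member. Among 20 writer regions 1 was a member (5%), against 6.25% of all regions tested. The member was a region in internal exon 7 of Wtap, at 2.67 and 3.10 in WT against 0.27 and 2.17 in KO. The neighbouring region of Wtap with the highest first-pair score kept 5.41 and 5.88 in WT against 5.12 and 4.88 in KO.

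In signalling genes, 7 of 49 regions of the Wnt list were members (14.3%, against 6.25% of all regions tested), in 6 genes. The Wnt receptor Fzd3 held 2 of them, one at 4.35 and 4.30 in WT against 0.41 and 1.48 in KO, and one at 2.86 and 2.75 in WT against 1.76 and 0.80 in KO. Tcf7l2, a transcription factor at the end of the pathway, had 2.48 and 2.37 in WT against −0.60 and −0.38 in KO. Axin2, a scaffold that restrains it, had 2.40 and 3.76 in WT against 0.81 and 1.40 in KO. The others were in Dvl1, Lrp6 and Lrp5, with differences of 1.56, 1.56 and 1.33. Median WT minus KO over all 49 regions of the list was 0.04.

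The list of FGF, ERK and PI3K signalling had 3 members of 46 (6.52%), against 6.25% of all regions tested. They lay in Taok1, in Rictor, a subunit of mTOR complex 2, and in Dusp6, a phosphatase that switches ERK off. Rictor stood at 3.29 and 3.42 in WT against 1.22 and 1.51 in KO, and Dusp6 at 2.01 and 2.67 in WT against −0.61 and 1.55 in KO. The TGF-beta list had 1 of 39 (2.56%), in Ski. In cholesterol synthesis, a region of Sqle, squalene epoxidase, had 2.47 and 2.99 in WT against 1.16 and 1.40 in KO. The p53 list had 1 of 18 (5.56%), in Perp, and the cell cycle list 1 of 15 (6.67%), in Rbl2. Polycomb and other chromatin regulators had no member among 89 regions.

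Among families taken by name, Rab GTPases and TBC1D proteins had 9 of 66 regions among the members (13.6%), against 6.25% of all regions tested. Protein phosphatase subunits had 5 of 41 (12.2%) and solute carriers 17 of 166 (10.2%). MAP kinase cascade kinases had 4 of 41 (9.76%), long intergenic noncoding RNAs 9 of 104 (8.65%), and F-box and deubiquitinase genes 10 of 126 (7.94%). Zinc finger genes named Zfp had 31 of 529 (5.86%) and 11 regions of the mirrored rule, and 39.7% of their regions were lower in KO, against 5183 of all 9603 regions. The TMEM family had 5 of 91 (5.49%) and kinesins 2 of 38 (5.26%). TRIM and RNF ligases had 4 of 87 (4.60%) and DEAD and DEAH box helicases 2 of 55 (3.64%). No list was tested against the others, and these counts are a description.

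Transcript levels of the 566 genes were measured in the inputs, which the score uses as a divisor, so levels and scores share these libraries. The RPKM table was not used for this, because its columns labelled KO input correlated across 21812 genes at 0.977 and 0.985 with the KO IP tracks and at 0.872 and 0.882 with the KO input tracks. With limma on log2(mean input coverage + 1), 37 of 545 member genes tested rose and 86 fell. In percent 6.79% rose and 15.8% fell, against 13.0% and 13.6% of all 11211 genes tested. The other genes with m6A regions stood at 11.4 and 13.1%. Median WT input coverage was 3.08 in member genes, 5.56 in these other genes and 5.79 in all genes tested. The part of coverage in these shares was not tested. The median log2 change was −0.055 in member genes and −0.0048 in all genes tested. Without WT replicate 1 the number of member genes that passed was 76 and without WT replicate 2 it was 72, against 123 with all libraries. Of the 123, some rising and some falling genes passed with any 1 of the 4 inputs left out. In these fits the spread comes from the group that keeps both inputs. The like count was not made over all genes, so no balance of directions is read from these fits.

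Of all 11211 genes tested, 1455 rose and 1522 fell, so most genes did not pass whether they held a member or not. Of the 600 regions, 445 lay in genes that did not pass the transcript test, 95 in genes that fell and 37 in genes that rose. The median WT minus KO score difference was 1.67, 1.73 and 1.55 in these 3 groups. A further 23 regions lay in genes too low to test. Over the 545 genes tested, 210 had a higher and the rest a lower mean of log2 input coverage in KO. In all genes tested 5498 of 11211 were higher. The part of transcript level in the choice of members was not tested.

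The largest rise was in Dusp6, from 6.61 and 7.67 in WT to 15.8 and 17.1 in KO (log2 change 1.103, SE 0.079, limma adjusted p = 3.14e-05). Gja1, which codes for the gap junction protein connexin 43, went from 23.9 and 24.7 to 45.3 and 44.6 (log2 change 0.86, limma adjusted p = 3.01e-05). Amotl2, of the angiomotin family, rose by 0.67 and Zfp36, a protein that promotes decay of AU-rich transcripts, by 0.63. Pxdn, a peroxidase of the extracellular matrix, rose by 0.63 and Npepl1 by 0.58. These 6 passed with any 1 input left out. Sqle and Perp rose by 0.45 each.

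The largest fall was in Igsf21, from 1.77 and 1.74 in WT to 0.391 and 0.457 in KO (log2 change −0.95, SE 0.083, limma adjusted p = 6.41e-05). Smoc1, a secreted calcium-binding protein, fell by 0.88, Atg14, an autophagy factor, by 0.79, and Mapt by 0.76. Camk1d, a calcium-dependent kinase, fell by 0.68 and Abhd4 by 0.65. These 6 passed with any 1 input left out as well. Cdc5l fell by 0.57, Aff1 by 0.52, Ppp3cb by 0.51 and Serac1 by 0.43.

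Nanog transcript was 198 and 206 in WT against 166 and 151 in KO, a fall of 0.35 (SE 0.075, limma adjusted p = 0.00894). Tet1 was 37.7 and 38.3 in WT against 30.3 and 28.1 in KO, a fall of 0.37 (limma adjusted p = 0.00350). Of the 36 genes of the naive list tested, 16 fell and 2 rose, with a median log2 change of −0.20. Nanog and Tet1 passed with any 1 input left out. Gca fell by 0.41, but its adjusted p was 0.052 without WT replicate 2. Taok1 fell by 0.26 (limma adjusted p = 0.0213), and passed in only 1 of the 4 fits with an input left out, with adjusted p up to 0.0957. For Rngtt, Sec24a, Rrm2 and Wtap the changes were 0.00, −0.07, −0.15 and 0.15, and none passed (limma adjusted p = 1.00, 0.547, 0.156 and 0.126).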

How the data were processed

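The submitters' processing notes name TopHat 1.1.3 and the build mm9. Filters on reads, the gene model and strand handling are not stated there or in the labels. The deposited window files give IP and input coverage, a signal scaled by 1 unstated factor per library, its gene median, and a log2 winscore, per the file headers. The winscore was recomputed from the coverage and matched in all 1510223 windows of each file (tolerance 1e-12). The deposited RPKM table (per the file headers) was used only to choose expressed genes from its WT columns. Input columns of the window files were assigned by the pair they lie in.

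Region scores are means over windows. Transcript levels are mean input coverage over a gene's windows; genes that reached 1 in 2 or more of the 4 inputs were tested with limma 3.58.1 (R 4.3.3; lmFit, eBayes with trend, Benjamini-Hochberg, threshold 0.05) on log2(coverage + 1), a scale that understates changes of low genes. The procedure was tested on simulated data. The labels do not say that replicates were separate cultures, so the p-values reflect spread among these libraries alone, possibly technical. Strand came from RefSeq (GRCm38.p6), used for names and exon order only: of the 566 names, 535 are current symbols and 21 older ones. Absolute read depth is unknown, so no counting intervals are given.

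The members, gene lists and tests were chosen with earlier results of these data known. Genes were named by a rule: Mettl3; the 12 largest differences and 10 highest inputs (difference: input at least 5); members at 3 or more in both WT and under 1 in both KO; genes with several members; regions at the bounds; members in the lists; and the 6 largest transcript rises and falls. The regions of Sox2, Klf4, Zfp42 and Esrrb, and Zc3h13, were named after their values were seen. One listed gene is not reported here. Python 3.11.15, numpy 2.4.6, pandas 2.3.3 and matplotlib 3.10.9 were used.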

Additional observations from a re-analysis of the deposited data

How the results depend on the processing

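The rule and its mirror were met by 1335 and 765 regions at a region threshold of 1 and by 140 and 13 at 3; by 356 and 41 with runs of at least 3 windows, 228 and 28 with input of at least 5, and 178 and 17 with a difference of at least 2. With RPKM of at least 5 the counts were 218 and 33. With the gene mean as divisor they were 335 and 33, and only 12.7% of the members were overlapped. With runs of 1 window the mirrored count was 180. The rule found more regions than its mirror under every alternative run. Leaving out libraries gave 508 to 981 regions for the rule and 121 to 234 for the mirror. The median difference of the regions chosen was 1.37 to 2.11 with a library left out, a direction the rule fixes. Changed transcripts numbered 2977 (123 in member genes), and 7965 (313) with the RPKM table, whose KO columns follow IP tracks, and 1930 (59) with a minimum of 5. With no filter, as planned, limma called 15 (0 member genes; at an unadjusted p under 0.05, 54 member genes were higher in KO and 127 lower), and leaving out genes at 0 in all inputs, chosen after seeing the data, 762 (28). Leaving out an input gave 1743 to 3144 (72 to 130). The replicate numbers did not pair the samples (correlation of deviations −0.03 in input and 0.03 in score). The replicate block gave 2737 changed genes, 113 of them member genes. Among the regions it called lower in KO, 56 were members, which the rule had chosen by this same contrast. In all it gave 74 regions with changed score, 15 higher and 59 lower in KO. Leaving out a pair gave 0 to 1240 such regions. Shallow IP libraries, with many windows at 0, limit all scores in WT and KO. The cause of these shifts was not tested.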
